A study of Rattus norvegicus with 19 samples.

Results

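The comparison covers 6 arrays of rat cortex, 3 from animals given transforming growth factor beta 1 (TGF-β1) and 3 from animals given the bile salt deoxycholate (DOC), at an early time, 24 h and 48 h. They are 6 of the 19 arrays of the series and were taken by treatment and set from the sample labels. The rats were adult male Wistar animals, and the tissue was somatosensory cortex, which had been perfused with artificial cerebrospinal fluid holding the agent. DOC was given at 2 mM, with tissue taken at 7, 24 and 48 h, and TGF-β1 at 10 ng/ml, with tissue taken at 8, 24 and 48 h. The early pair is therefore 1 h apart in time. The same set of 10 arrays holds 3 arrays with albumin at 0.1 mM (8, 24 and 48 h) and 1 sham-operated animal (24 h), while the other 9 arrays form set 2. Each treatment and time had 1 array, so no time had a replicate. Whether an array held 1 animal or a pool of treated animals was not stated in the labels.

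TGF-β1 is a secreted cytokine that binds a pair of receptor kinases, and these phosphorylate SMAD2 and SMAD3, which enter the nucleus with SMAD4 and act on target genes. In the injured brain it is known for its part in astrocyte activation, scar matrix and the restraint of microglia. Deoxycholate is a bile salt with detergent action, and the series applied it to make the vessels of the cortex leaky to serum (opening of the blood-brain barrier). The comparison sets cortex given the cytokine itself against cortex whose barrier had been opened, with the time after treatment matched. It carries no untreated arm, and the single sham and the albumin arrays are given beside it as background.

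The values are log2 signals per probe set. The median of all probe sets lay between 5.09 and 5.17 on the 10 arrays of set 1, and the median correlation of an array with the others of its set was between 0.985 and 0.992. The tissue label held for markers of neurons and myelin: Snap25, a synaptic vesicle fusion protein, had a log2 signal of 14.23 to 14.54 on the 6 arrays, and Mbp, myelin basic protein, 14.22 to 14.94. Striatal and meningeal markers were also present and moved between the arrays, as described with their values below. Bulk tissue was measured, so fewer cells of a type and less RNA per cell cannot be told apart. The 24 poly-A control probe sets, which read bacterial transcripts added to the RNA before labelling, stood apart between the treatments. Their mean log2 signal was 10.10, 9.57 and 10.22 on the DOC arrays and 8.78, 8.91 and 8.86 on the TGF-β1 arrays, in time order. In 24 of 24 every DOC array lay above every TGF-β1 array. The mean was 9.44, 9.17 and 8.72 with albumin and 9.10 in sham. The 18 hybridisation controls, added after labelling, averaged 10.59 to 10.78 with DOC and 9.89 to 10.67 with TGF-β1, and 4 of 18 were apart. The 3' minus 5' log2 signal of beta-actin, a measure of RNA integrity, was 2.67, 2.85 and 2.66 with DOC and 2.33, 2.75 and 2.16 with TGF-β1. For GAPDH it was -0.26, 0.02 and -0.31 with DOC and -0.30, -0.09 and -0.27 with TGF-β1. For hexokinase it was 1.59, 1.34 and 1.51 against 0.94, 1.62 and 1.12. The ranges of the 3' minus 5' signals thus overlapped for each of these genes, while the poly-A controls stood apart by treatment. The part of the controls in the results that follow was not tested.

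Between TGF-β1 and DOC, 3 genes differed at an adjusted p under 0.05 (limma, additive model of treatment and time, Benjamini-Hochberg over 10018 genes). Psd and the pseudogene Brcc3-ps7 were higher with TGF-β1, and Ubn1 was lower. They make 0.0299% of the genes tested, 0.02% for the higher and 0.00998% for the lower direction. In what follows a difference is always the log2 signal with TGF-β1 minus that with DOC, averaged over the 3 times (n = 3 arrays per treatment), with its moderated standard error (SE). Since there was 1 array per cell of the design, the spread behind each SE is the residual of the model over the 9 treated arrays. That residual mixes noise between arrays with any change of the treatment differences over time. It does not measure the spread between animals of the same treatment and time. A gene whose difference changes over time therefore has a larger SE.

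A larger number of genes leaned one way without passing that threshold. An unadjusted p under 0.05 was found for 2085 genes (20.8%), of which 1435 (14.3%) were higher and 650 (6.49%) lower with TGF-β1. At an adjusted p under 0.1, a threshold chosen after seeing the data, 232 genes (2.32%) were counted, 171 higher (1.71%) and 61 lower (0.609%). Both the looser count and the split depended on the scaling of the arrays. With each array centred on its median, which moved the median of all genes by -0.108, 3 genes had an adjusted p under 0.1, and the unadjusted calls split into 853 higher and 1240 lower. A second quantile normalization gave 3 such genes as well, and a split of 1091 higher to 912 lower. The lean towards higher values with TGF-β1 was thus smaller after quantile normalization and turned round after centring, while the 3 genes at an adjusted p under 0.05 were the same under each scaling. The array with DOC at 48 h moved the count most: without it 179 genes passed, 94 higher and 85 lower, whereas leaving out any other single array left 1 to 6.

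Single pairs of arrays were compared by size only. At least 2-fold apart were 318 genes higher (3.17%) and 223 lower (2.23%) at the early time, 348 (3.47%) and 369 (3.68%) at 24 h, and 322 (3.21%) and 150 (1.5%) at 48 h. Only 19 genes (0.19%) were at least 2-fold higher at all 3 times and 5 (0.0499%) at least 2-fold lower. Every TGF-β1 array lay above every DOC array for 1328 genes (13.3%) and below for 699 (6.98%). At 48 h 9546 of all genes (95.3%) were under 2-fold apart. In all, 91 genes (0.908%) were at least 2-fold lower at the early time and 24 h, and 82 of these (90.1%) were under 2-fold apart at 48 h. Of the 83 genes (0.829%) that were 2-fold higher at both, 60 (72.3%) were under 2-fold apart at 48 h. The lone sham, which entered no fit, was nearer to the TGF-β1 mean than to the DOC mean for 6692 genes (66.8%), for 154 of the 171 higher genes at an adjusted p under 0.1 (90.1%) and for 57 of the 61 lower ones (93.4%). The same held for 19 of the 24 genes 2-fold apart at all 3 times (79.2%) and for 83 of the 91 that were lower at both earlier times (91.2%).

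Brcc3-ps7, a pseudogene related to the deubiquitinase gene Brcc3, had the smallest p. Its log2 signal was 3.00, 2.11 and 2.13 on the DOC arrays at 7, 24 and 48 h and 7.52, 7.17 and 7.01 on the TGF-β1 arrays at 8, 24 and 48 h. All DOC arrays were under the filter level of 4, and those at 24 and 48 h under the lower quartile of all probe sets on their array (2.50 on each). All TGF-β1 arrays were well above it, with no overlap. The albumin arrays (8.36, 8.63 and 8.11) and the sham (8.35) were on the TGF-β1 side. Brcc3-ps7 rose by 4.82 ± 0.21 with TGF-β1 relative to DOC on the scale of the fitted log2 signals (limma, adjusted p = 0.000655). Since the DOC values lie near background, no fold is given. The probe set was also split within groups of set 2, where 3 arrays that had no DOC read 2.23, 2.14 and 2.24 and the other 6 read 8.48 to 9.72. The low state was therefore present in animals of both sets, and whether it goes with the animal or with the treatment was not tested.

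Psd encodes an exchange factor for the small GTPase ARF6 at neuronal membranes. With DOC it read 4.63, 4.48 and 4.64, and with TGF-β1 it read 6.73, 6.66 and 6.48. The groups did not overlap, and neither moved much over time. Albumin lay between them (5.89, 6.25 and 5.49), and the sham, at 6.70, was within the TGF-β1 range. Psd rose by 2.04 ± 0.18 with TGF-β1 relative to DOC, a 4.10-fold difference (limma, adjusted p = 0.0288).

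Ubn1, or ubinuclein 1, is a subunit of the HIRA complex, which deposits histone H3.3. Its signal was 10.04, 9.89 and 9.35 with DOC and 8.54, 8.51 and 8.00 with TGF-β1, so that every DOC array was the higher. The albumin arrays were again between the treatments (9.15, 9.22 and 8.62), while the sham was 8.00. Ubn1 fell by 1.41 ± 0.11 with TGF-β1 relative to DOC (limma, adjusted p = 0.0198), and its other probe set gave a mean difference of -0.588. Brcc3-ps7 stayed under the threshold when any 1 of the 9 arrays was left out (highest adjusted p 0.0244), though not when all 3 arrays of 48 h were (0.0758). Psd and Ubn1 each did so in 2 of 9 cases, without the 48 h DOC array and without the 24 h albumin array. Their adjusted p rose to as much as 0.271 for Psd and 0.252 for Ubn1 without 1 of the other 7 arrays (the lowest were 0.0519 and 0.0601). Ubn1 also missed the threshold with only the 6 arrays in the fit (adjusted p = 0.135), without the time term (0.163) and as the mean of its probe sets (0.0842), and Psd did without a filter on low values (0.0867).

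**Figure D1:**
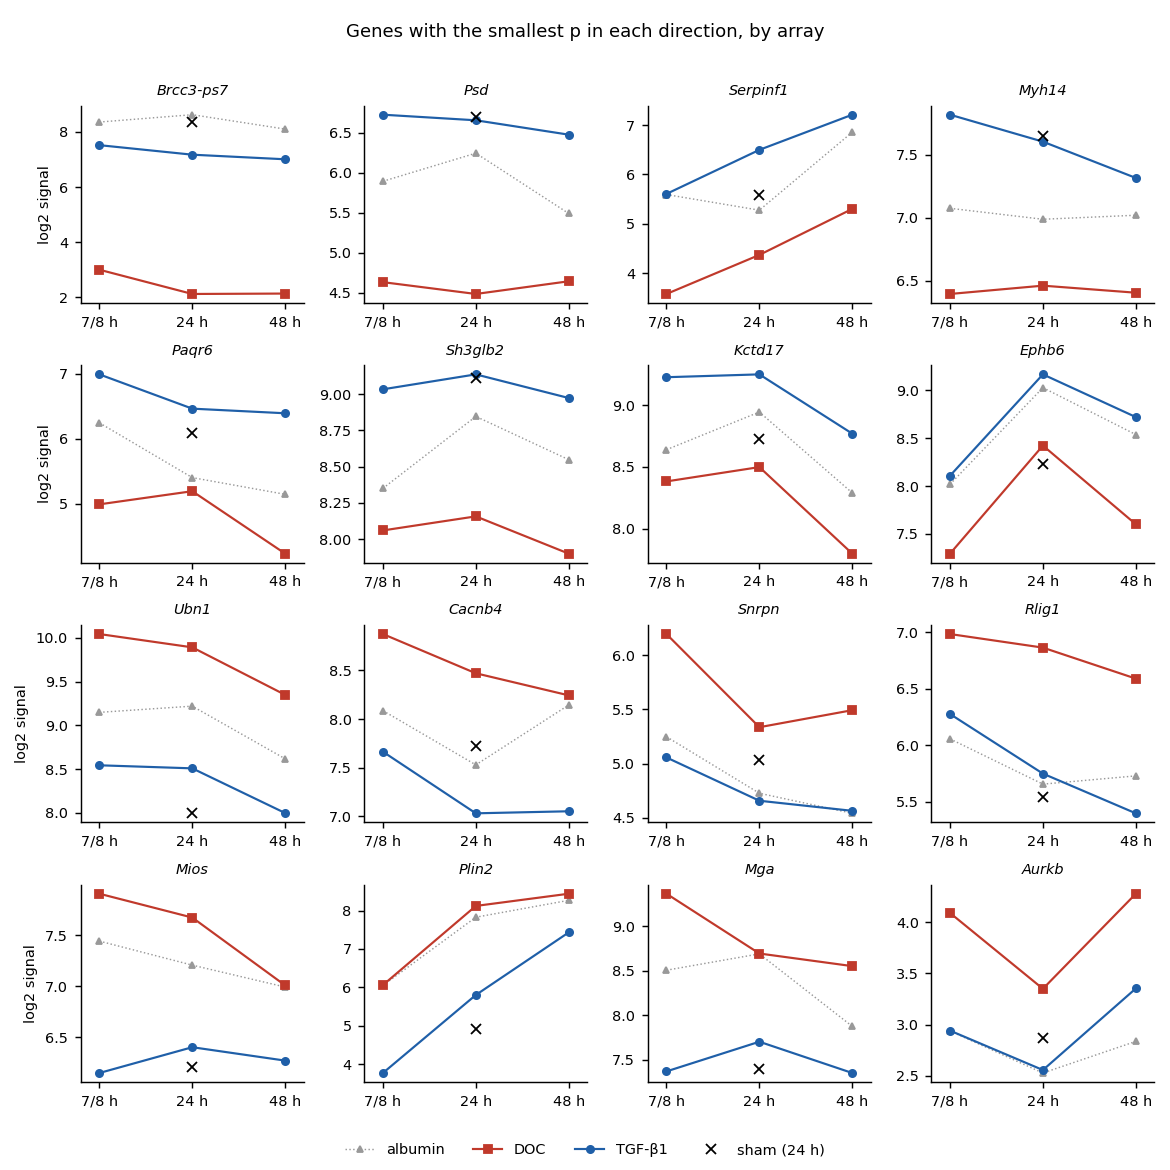
Log2 signal (vertical axis, own range per panel) at the 3 times (horizontal axis) of the 8 genes with the smallest p in each direction, with DOC (red squares), TGF-β1 (blue circles), albumin (grey triangles) and the lone sham at 24 h (cross), 1 array per point. Brcc3-ps7, Psd and Ubn1 passed the threshold, and the other 13 genes did not (limma, adjusted p = 0.0894). The DOC and TGF-β1 lines run apart at each time because only genes of 1 sign at all 3 times were chosen.

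The next genes in order of p in each direction did not pass the threshold (limma, adjusted p = 0.0894 for each). Among those higher with TGF-β1, Serpinf1, which encodes the antiangiogenic serpin PEDF, was 3.58, 4.37 and 5.30 with DOC and 5.61, 6.50 and 7.21 with TGF-β1. It was higher at each later time on both sides, about equally far apart at each time (2.02 ± 0.24). Paqr6, a membrane progestin receptor, was 4.99, 5.19 and 4.23 against 6.99, 6.46 and 6.39 (1.81 ± 0.22). Myh14, a nonmuscle myosin heavy chain, was nearly flat with DOC (6.39, 6.46 and 6.40) and read 7.82, 7.60 and 7.32 with TGF-β1. Sh3glb2, an endophilin family protein, had a difference of 1.01 ± 0.13, Kctd17, an adaptor for cullin ubiquitin ligases, one of 0.86 ± 0.12, and Ephb6, a kinase-dead ephrin receptor, one of 0.89 ± 0.12. All 6 were higher with TGF-β1 at every matched time, as the rule that chose them required. The ranges of the 2 treatments overlapped for Ephb6, where DOC read 8.42 at 24 h and TGF-β1 8.11 at 8 h.

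On the lower side, Plin2, the perilipin that coats lipid droplets, was 6.06, 8.12 and 8.44 with DOC and 3.77, 5.80 and 7.43 with TGF-β1. Both courses were higher at each later time, and the difference went from -2.29 at the early time to -1.01 at 48 h, with a mean of -1.87 ± 0.29. The early TGF-β1 value was under the filter level of 4. Its other probe set gave a mean of -0.529 and another course. That probe set read 5.27, 6.72 and 7.63 with DOC and 5.40, 5.75 and 6.88 with TGF-β1, so it was not lower with TGF-β1 at the early time. Cacnb4, a beta subunit of voltage-gated calcium channels, read 8.87, 8.47 and 8.24 with DOC and 7.66, 7.03 and 7.05 with TGF-β1 (-1.28 ± 0.18), with no overlap. Mga, a MAX-binding repressor of E-box and T-box genes, had a difference of -1.40 ± 0.22, and Mios, a part of the GATOR2 complex that acts on mTORC1, one of -1.25 ± 0.19. Rlig1, an RNA ligase, differed by -1.0 ± 0.15, Snrpn, an imprinted gene of a small ribonucleoprotein, by -0.91 ± 0.13. Aurkb, the mitotic kinase Aurora B, was above the filter level of 4 on 2 DOC arrays only (4.09, 3.35 and 4.28 with DOC against 2.94, 2.56 and 3.35), so it was tested through the DOC arrays alone and its difference is one against values near background. The sham was nearer the TGF-β1 than the DOC mean for each of Plin2 (4.92), Cacnb4 (7.72), Mga (7.39) and Mios (6.21).

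Some of the genes that were 2-fold apart at all 3 times are also given, chosen after their values were seen. Colec12, a scavenger receptor of vessels and stroma, was 4.34, 4.20 and 6.06 with DOC and 6.30, 6.61 and 8.36 with TGF-β1. S100a3, a calcium-binding protein, was 1.86, 3.89 and 4.45 against 5.1, 6.0 and 6.20. By that choice both were apart at each time, and neither passed the threshold (limma, adjusted p = 0.0894 each). The first 2 DOC values of S100a3 were under the filter level of 4. Lgals9, the galectin that binds TIM-3, had a difference of 1.41 ± 0.23, and Lgals3bp, a galectin-binding glycoprotein, one of 1.11 ± 0.42. Ogn and Col1a2 are described with the meningeal markers. Prss35, a serine protease-like protein, was the gene with the widest gap on the lower side at 24 h among the 5 that were lower at all times: 7.29, 8.19 and 6.87 with DOC and 4.29, 2.82 and 5.84 with TGF-β1 (-3.13 ± 1.18, adjusted p = 0.205).

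With an array or a time left out, the median difference of 15 of the 31 gene lists described next changed sign, and that of the other 16 did not. Beyond the fixed genes and up to 3 members per list with the smallest p, list members were chosen after their values were seen. Counts of members above or below 0 are to be read beside the median of all genes. That median was 0.053, -0.055 with arrays centred and -0.002 after a second quantile normalization, so its sign depended on the scaling. The pathway of TGF-β1 itself was examined from the ligand to the target genes. Of 28 ligands, receptors and activators listed, 17 could be tested and none passed (limma, adjusted p under 0.05). At an unadjusted p under 0.05, 2 were higher and 2 lower, against 14.3% and 6.49% of all genes. The median difference was 0.12, against 0.053 for all genes, and 0.011 with arrays centred on their median. Tgfb1 itself read 3.78, 4.96 and 4.14 with DOC and 4.17, 4.16 and 5.21 with TGF-β1, in overlapping ranges, and the 95% interval of its difference was -0.53 to 0.97. Its sign turned negative without the 48 h array of either treatment (lowest value -0.21). Tgfb2 was close to equal at all 3 times (-0.09, interval -0.63 to 0.45), though it was 0.09 as the mean of its probe sets. The type I receptor gene Tgfbr1 was higher at each later time on both sides, going from 8.17 to 9.78 with DOC and from 8.70 to 10.46 with TGF-β1 (0.33, interval -0.13 to 0.78). Tgfb3 was under the filter, and no probe set named Tgfbr2 alone.

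Other members of the family differed more. Itgav, the integrin alpha V that releases TGF-β from its latent complex, was 8.73, 9.27 and 8.92 with DOC and 10.50, 10.30 and 9.36 with TGF-β1. It was apart on all arrays, and widest at the early time (1.07 ± 0.32, adjusted p = 0.151). Bmp6, a bone morphogenetic protein, was flat with DOC (5.46, 5.52 and 5.49) and higher with TGF-β1 (6.41, 6.11 and 7.36; 1.14 ± 0.28, adjusted p = 0.121). Bmpr2, its type II receptor, ran the other way (10.36, 10.57 and 10.36 against 9.73, 10.10 and 9.77; -0.56 ± 0.14). Inhba, the activin A subunit, reached 12.38 with DOC at 24 h while TGF-β1 read 8.03, a difference of -4.34 at that time, and was 8.27 and 7.94 at 48 h. Eng, or endoglin, an endothelial co-receptor, had differences of 2.06 at the early time, -0.76 at 24 h and 1.95 at 48 h, so that its times did not share a direction.

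Among the SMADs, corepressors and target genes, 20 of 29 could be tested, and none passed or reached an unadjusted p under 0.05 in either direction. The median difference was -0.07, and -0.18 with centred arrays. Smad3 was 8.91, 8.48 and 6.95 with DOC and 7.81, 7.53 and 7.00 with TGF-β1, higher with DOC at the first times and level at 48 h (-0.67, interval -1.5 to 0.16). Smad2 was 8.16, 8.18 and 8.62 with DOC and 7.72, 8.15 and 8.07 with TGF-β1, without overlap, as for 6.98% of all genes, and did not pass (-0.34, interval -0.73 to 0.04; limma, adjusted p = 0.283). Smad4 had a difference of -0.10 (interval -0.37 to 0.17). Smad7, the inhibitory SMAD and itself a TGF-β target, was 6.12, 7.96 and 6.53 with DOC against 7.00, 7.10 and 6.90, higher with DOC only at 24 h (0.13, interval -0.59 to 0.85). Its sign turned negative without the early DOC or the early TGF-β1 array, as low as -0.24. The direct targets followed no single course. Tgfbi, a secreted matrix protein named for its induction by TGF-β, was 8.39 with DOC and 4.87 with TGF-β1 at 24 h, and 4.10 and 6.03 at 48 h. Klf10, the TGF-β inducible early gene, was 11.23, 11.90 and 8.31 with DOC and 8.78, 9.25 and 9.25 with TGF-β1. Id1, an inhibitor of differentiation that BMPs induce, was 7.27 with DOC and 8.69 with TGF-β1 at the early time, and 8.62 and 8.58 at 24 h. Ccn2, or connective tissue growth factor, was nearly equal (-0.03, interval -0.42 to 0.35).

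Immediate early and activity genes are those that neurons and glia switch on within minutes to hours of depolarisation or injury. None of the 33 tested of 40 listed passed the threshold. At an unadjusted p under 0.05, 6 were lower and 2 higher, against 6.49% and 14.3% of all genes. The median difference was -0.28 over the 3 times, against 0.053 for all genes, and -0.39 with centred arrays. It was -0.05 without the arrays of 24 h, -0.11 without the TGF-β1 array of that time and -0.15 without the DOC array, and -0.42 to -0.58 with any other TGF-β1 or DOC array, or time, left out (-0.58 without the 48 h DOC array). By time the median was -0.33, -1.05 and -0.02. At 24 h 18 of 33 were at least 2-fold lower with TGF-β1, against 3.68% of all genes. At 48 h none was, against 1.5% of all genes, and 4 of 33 were at least 2-fold higher, against 3.21%. In all, 7 (Fos, Fosb, Egr2, Egr4, Bdnf, Dusp5 and Rgs2) were 2-fold lower at both first times, against 0.908% of all genes, and all of these were under 2-fold apart at 48 h, as were 90.1% of all genes with that course. The mean log2 signal of the 33 was 8.73, 8.96 and 7.41 on the DOC arrays and 8.15, 7.83 and 7.61 on the TGF-β1 arrays, while it was 8.39 in sham. The TGF-β1 arrays thus lay below the sham as well.

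The promoters of Egr2, Dusp5 and Egr4, chosen after their values were seen because they are among the genes that were 2-fold lower at both first times, are shown to give the sequence around their start sites. They are the 250 bases before the start site in the RefSeq annotation of rat GRCr8, at chr20:21054442-21054691 (minus strand), chr1:262543524-262543773 (plus strand) and chr4:119607818-119608067 (minus strand). Capitals mark matches to the cyclic AMP response core TGACG (on the other strand CGTCA) and to the CArG box, the site bound by serum response factor.
Egr2: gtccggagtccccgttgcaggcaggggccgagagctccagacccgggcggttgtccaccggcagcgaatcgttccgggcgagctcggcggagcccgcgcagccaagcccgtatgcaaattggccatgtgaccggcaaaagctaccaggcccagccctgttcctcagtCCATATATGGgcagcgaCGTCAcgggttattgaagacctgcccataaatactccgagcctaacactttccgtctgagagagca
Dusp5: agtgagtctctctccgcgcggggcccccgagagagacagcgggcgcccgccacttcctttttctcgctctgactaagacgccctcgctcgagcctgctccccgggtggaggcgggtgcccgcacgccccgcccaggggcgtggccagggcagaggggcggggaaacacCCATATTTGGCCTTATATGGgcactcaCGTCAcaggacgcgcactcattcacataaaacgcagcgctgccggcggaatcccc
Egr4: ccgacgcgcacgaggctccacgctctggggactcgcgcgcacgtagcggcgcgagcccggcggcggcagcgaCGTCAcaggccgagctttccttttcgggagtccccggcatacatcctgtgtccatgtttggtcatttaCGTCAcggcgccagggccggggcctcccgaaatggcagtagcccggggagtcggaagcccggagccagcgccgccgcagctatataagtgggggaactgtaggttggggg
Egr2 held 1 TGACG core and 1 CArG box, Dusp5 1 TGACG core and 2 CArG boxes, and Egr4 2 TGACG cores. Over 27457 promoters of that length, searched on both strands, 19% held TGACG and 1.5% held a CArG box. Of the 25 tested activity genes with a promoter in the table, 16 held TGACG and 4 a CArG box. Among the 6 of them that were 2-fold lower at both first times, 4 held TGACG (Egr2, Egr4, Dusp5 and Rgs2) and 2 a CArG box. A match is a description of the letters and does not show binding.

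Fosb is an AP-1 subunit. Its log2 signal was 8.08, 7.30 and 3.14 with DOC and 3.54, 2.56 and 2.67 with TGF-β1. The DOC arrays were high at the first times only, and at 48 h the difference was -0.47. Albumin was high throughout (6.57, 7.31 and 5.82) and the sham was 3.37. All TGF-β1 arrays were under the filter level of 4, so the size of the gap is that of fitted values near background. The mean difference was -3.25 ± 0.85 and did not pass (limma, adjusted p = 0.129).

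The zinc finger factor Egr2 was 9.83, 9.16 and 5.37 with DOC and 7.58, 5.88 and 5.0 with TGF-β1. Its relative Egr4 was 9.43, 8.76 and 6.38 against 7.30, 6.63 and 6.24. Both were lower with TGF-β1 at the first times and near level at 48 h. Unlike Fosb, both were high in sham, at 8.84 for Egr2 and 8.36 for Egr4, so the sham lay on the DOC side of these genes at 24 h. Bdnf, the activity-dependent neurotrophin, was 9.98, 9.89 and 7.18 with DOC and 7.43, 7.98 and 7.10 with TGF-β1, with the sham at 8.12. Dusp5, a phosphatase that switches ERK off, was 7.09, 7.46 and 3.62 against 5.33, 4.28 and 4.30, and Fos itself was 11.30, 11.32 and 8.07 against 10.10, 9.24 and 8.60. Rgs2, a brake on G protein signals, and Crem, a cyclic AMP response repressor, kept the lower side at all times, at -0.96 ± 0.24 and -0.67 ± 0.16 (adjusted p = 0.121 and 0.118).

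Not every member took that course. Egr1 was close to equal (11.98, 11.25 and 10.46 against 11.70, 11.39 and 11.20), and Nr4a1, an orphan nuclear receptor, was higher with TGF-β1 at each time (0.74 ± 0.31). Arc, a synaptic immediate early gene, had a difference of -2.10 at 24 h and of 1.66 at 48 h. A few stress genes had the same course as Fosb. Gadd45b, a DNA damage response gene, was 10.08, 10.77 and 6.99 with DOC and 7.34, 7.46 and 7.06 with TGF-β1 (-1.99 ± 0.69, adjusted p = 0.182). Srxn1, which repairs oxidised peroxiredoxins, was 10.71, 10.76 and 8.05 against 8.64, 8.18 and 8.12. For both the DOC array at 48 h had come down to the TGF-β1 level.

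**Figure D2:**
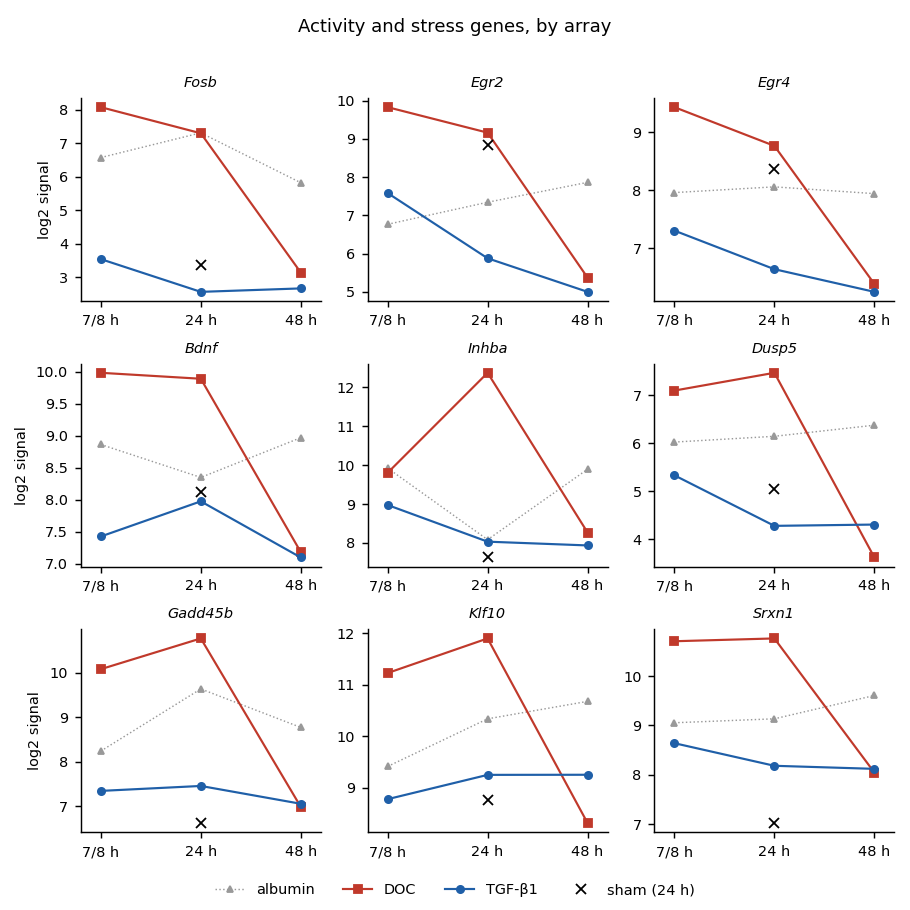
Log2 signal (vertical axis, own range per panel) of 9 activity and stress genes at the 3 times (horizontal axis), with DOC (red squares), TGF-β1 (blue circles), albumin (grey triangles) and the lone sham at 24 h (cross), 1 array per point. DOC is above TGF-β1 at the first times and within 1 log2 unit of it at 48 h, as in Fosb, where the 48 h values are 3.14 and 2.67.

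Cytokines, chemokines and NF-κB genes were lower with TGF-β1 in 21 of 30 tested members, with a median difference of -0.38 (-0.49 with centred arrays, and -0.23 without the 24 h DOC array). None passed, and at an unadjusted p under 0.05, 3 were lower and 1 higher, against 6.49% and 14.3% of all genes. Ccl2, the chemokine that draws monocytes, was 8.60, 10.72 and 9.56 with DOC and 8.46, 8.02 and 8.40 with TGF-β1, against 2.83 in sham. Every treated array was far above the sham, and the difference was -2.70 at 24 h (mean -1.33 ± 0.44, adjusted p = 0.171). Stat3, the transducer of interleukin-6 family signals, was 8.70, 9.72 and 8.98 against 8.54, 9.04 and 8.60 (-0.41 ± 0.13). Cx3cl1, the neuronal chemokine fractalkine, was higher with TGF-β1 (0.43 ± 0.16, adjusted p = 0.202). Il1b was 7.19 with DOC at 7 h against 3.72 with TGF-β1 at 8 h, and every later value with either agent was 3.48 to 3.72, while albumin read 5.69, 6.09 and 3.62. Il6 was 3.99 with DOC and 6.55 with TGF-β1 at the early time and 2.35 to 2.43 later, and albumin read 7.95 at 8 h. Without the early DOC array the mean difference of Il6 was -0.29.

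Reactive astrocyte genes took no common direction. Of 27 tested, 13 were higher and 14 lower with TGF-β1, and none passed. At an unadjusted p under 0.05, 3 were higher and 4 lower, against 14.3% and 6.49% of all genes. The median was -0.03 (-0.13 with centred arrays), and -0.34 to 0.12 with an array or time left out. By time it was 0.39, -0.23 and 0.07. At 24 h 6 of 27 were at least 2-fold lower and 3 higher, against 3.68% and 3.47% of all genes. At 48 h 4 were lower and 2 higher, against 1.5% and 3.21%. Gfap, the astrocyte filament, was 10.54, 13.49 and 13.44 with DOC and 11.83, 13.60 and 13.94 with TGF-β1, and 12.07 in sham (0.64, interval -0.04 to 1.32). Vim, vimentin, was 9.13, 10.99 and 12.30 against 9.87, 11.02 and 12.60 (0.35, interval -0.08 to 0.79). With each agent both were lowest at the early time, and the range over time was wider than the gap between agents. Timp1, a metalloproteinase inhibitor, was 6.70, 10.09 and 10.59 against 8.76, 10.34 and 11.15, with the sham at 4.15. Spp1, osteopontin, reached 12.84 with DOC and 11.18 with TGF-β1 at 48 h, with the sham at 2.97. S100a6, a calcium-binding protein of reactive glia, was the member with the smallest p (5.26, 6.38 and 8.29 against 5.66, 7.95 and 9.58; 1.08 ± 0.27, adjusted p = 0.122), and Fgf2, a growth factor, was lower (-0.73 ± 0.25).

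Genes for astrocyte potassium, water and glutamate handling, the homeostatic side of the cell, had a positive median. All 19 tested were above 0, with a median of 0.33; with centred arrays 15 of 19 were, with a median of 0.23. None passed, and 6 had an unadjusted p under 0.05, all higher with TGF-β1, against 14.3% of all genes higher and 6.49% lower. The median was 0.20 without the arrays of 48 h and 0.21 without the DOC array of that time. Aqp4, the water channel of astrocyte endfeet, was 12.84, 12.40 and 13.04 with DOC and 12.97, 13.11 and 13.37 with TGF-β1 (0.39 ± 0.14, adjusted p = 0.201). Aldh1l1, a folate enzyme used as an astrocyte marker, was 7.38, 5.64 and 6.58 against 7.57, 6.96 and 7.48 (0.81 ± 0.25). Gjb2, connexin 26, had the widest difference at 1.70 ± 0.52, and it is also made in the meninges. Of the glutamate transporters, Slc1a2 (GLT-1) had a difference of 0.33 (interval -0.23 to 0.90). Slc1a3 (GLAST) had one of 0.02 (interval -0.36 to 0.41), which was -0.09 with centred arrays and -0.02 after a second quantile normalization. Kcnj10, the inward rectifier Kir4.1, was under the filter.

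Markers of the meninges, the membranes over the cortex that a dissection can include, were higher with TGF-β1 in 11 of 12 tested members. The median was 1.21 (1.11 with centred arrays), the highest of the 31 lists, against 0.053 for all genes, and by time 0.71, 1.10 and 1.81. The median over the 3 times was 0.50 without the 48 h DOC array, 0.46 without all arrays of 48 h, and 0.92 to 1.495 with any other array or time left out. None passed, and 7 had an unadjusted p under 0.05, all higher, against 14.3% of all genes. The mean log2 signal of the 12 was 5.78, 5.44 and 6.34 with DOC and 6.46, 6.65 and 8.07 with TGF-β1, against 6.97, 5.51 and 8.04 with albumin and 5.63 in sham. The TGF-β1 arrays were the higher at each time, and the 48 h array the highest of the 6. Col1a2, a chain of type I collagen, was 4.03, 3.22 and 6.49 with DOC and 6.0, 5.78 and 8.90 with TGF-β1 (2.31 ± 0.32, adjusted p = 0.0894). Ogn, the leucine-rich proteoglycan osteoglycin, was 4.42, 3.02 and 4.22 against 6.52, 6.35 and 6.22, with no overlap (2.48 ± 0.62, adjusted p = 0.123). For both Col1a2 and Ogn the DOC array of 24 h was under the filter level of 4. Ptgds, the prostaglandin D synthase of the arachnoid, was 11.35, 10.40 and 10.40 against 12.33, 11.98 and 12.03. Slc6a20a, a proline transporter of the meninges, reached 9.24 with TGF-β1 at 48 h against 4.82 with DOC, and Crabp2, a retinoic acid binding protein, 7.74 against 4.21. Not every marker took part: Dcn, decorin, was 7.42, 6.80 and 8.07 against 6.72, 7.08 and 7.68 (-0.27, interval -0.76 to 0.23), and Slc22a8, Slc13a4, Fmod, Foxc1 and Cdh1 were among the markers not tested.

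**Figure D3:**
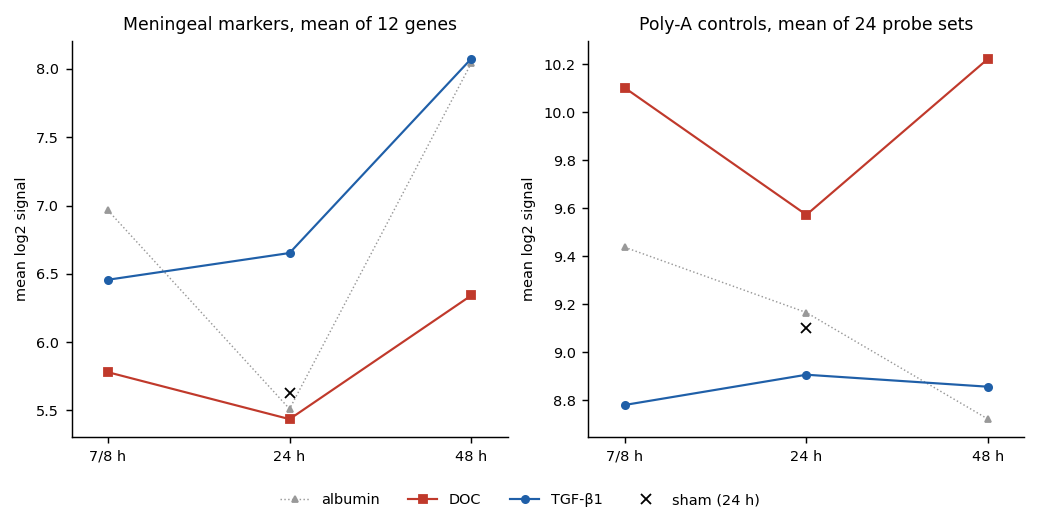
Mean log2 signal (vertical axes) of the 12 meningeal markers (left) and of the 24 poly-A control probe sets (right) at the 3 times (horizontal axis), with DOC (red squares), TGF-β1 (blue circles), albumin (grey triangles) and the lone sham at 24 h (cross), 1 array per point. TGF-β1 is above DOC for the meningeal markers at each time, 8.07 against 6.34 at 48 h, and below DOC for the controls at each time.

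Genes of the extracellular matrix and its proteases, of which 6 (Col1a1, Col1a2, Col3a1, Dcn, Lum and Ogn) are also meningeal markers, were higher in 37 of 52 tested (median 0.24, 0.13 with centred arrays and as low as 0.13 without the 48 h DOC array). Without those 6 the median of the other 46 was 0.21. By time the median was 0.09, 0.13 and 0.38, and at 48 h 12 of 52 were at least 2-fold higher and none lower, against 3.21% and 1.5% of all genes. None passed, and at an unadjusted p under 0.05, 11 were higher and 3 lower, against 14.3% and 6.49% of all genes. Timp2, an inhibitor of metalloproteinases, was 10.25, 10.69 and 11.21 with DOC and 10.64, 11.33 and 11.66 with TGF-β1 (0.49 ± 0.12, adjusted p = 0.112). Col3a1, fibrillar collagen III, was 4.57, 3.95 and 6.20 against 5.38, 6.23 and 8.82. Postn, periostin, a matricellular protein that TGF-β is known to induce, was on the lower side at each time (7.39, 7.59 and 8.24 against 6.57, 6.94 and 7.97; -0.58 ± 0.14, adjusted p = 0.112). Whether the meningeal markers and the other matrix genes moved together was not tested.

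Microglia and macrophage genes had 17 of 23 above 0 (median 0.28, 0.17 with centred arrays and as low as 0.07 without the early DOC array). None passed, and at an unadjusted p under 0.05, 3 were higher and 2 lower, against 14.3% and 6.49% of all genes. Cd74, the invariant chain of MHC class II, was 3.96, 5.84 and 6.21 with DOC and 6.08, 6.37 and 7.31 with TGF-β1 (1.25 ± 0.43, adjusted p = 0.179). Cybb, a subunit of the phagocyte NADPH oxidase, was lower with TGF-β1 at each time (2.57, 4.59 and 7.53 against 2.37, 3.06 and 6.38; -0.96 ± 0.25, adjusted p = 0.129), as was the leukocyte tetraspanin Cd53 (-0.71 ± 0.21). Both early Cybb values and the 24 h value with TGF-β1 were under the filter level of 4. The mean signal of the list was higher at each later time on both sides, from 5.76 to 7.88 with DOC and from 6.14 to 7.99 with TGF-β1, from 5.89 in sham. Complement genes had 4 higher and 1 lower of 11 at an unadjusted p under 0.05, against 14.3% and 6.49% of all genes. Their median was 0.29, and as low as 0.10 without the 24 h DOC array. Clu, the chaperone clusterin, was 12.39, 12.96 and 12.45 against 13.10, 13.30 and 13.67 (0.76 ± 0.18, adjusted p = 0.112), and C1qa and C1qc, chains of C1q, differed by 0.69 ± 0.23 and 0.57 ± 0.19. C3 was near equal (-0.23, interval -0.63 to 0.17). Interferon and antigen presentation genes had 19 of 25 above 0 (median 0.25), with 3 higher and none lower at that level, against 14.3% and 6.49% of all genes. That median turned to -0.14 without the early DOC array, and it was 0.07 without the 48 h TGF-β1 array. It was 0.50 without the early TGF-β1 array and 0.53 without the 48 h DOC array. At the early time 4 of 25 were at least 2-fold higher and 0 lower, against 3.17% and 2.23% of all genes. At 48 h 4 were higher and 6 lower, against 3.21% and 1.5%. Ifi27, an interferon-induced mitochondrial protein, was 9.46, 10.27 and 10.61 with DOC and 10.77, 11.01 and 11.34 with TGF-β1 (0.93 ± 0.26), apart at every time.

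Of 28 neutrophil and lymphocyte markers 3 could be tested, and their mean signal was between 4.98 and 6.76 on the 6 arrays. S100a8 and S100a9, the subunits of calprotectin in neutrophils, were high on the early TGF-β1 array (6.87 and 9.04, against 4.10 and 7.12 with DOC) and on the early albumin array (8.75 and 11.02). At 48 h S100a9 was 6.52 with DOC and 5.09 with TGF-β1. Mmp9, a gelatinase that neutrophils carry, was instead higher with DOC at the first times (6.88, 8.77 and 6.03 against 4.38, 6.79 and 6.41).

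Neuronal genes were close to level with a lean to TGF-β1. Of 31 neuron markers, 8 had an unadjusted p under 0.05, all higher, against 14.3% of all genes higher and 6.49% lower. None passed, and the median was 0.14, against 0.053 for all genes. It was 0.03 with centred arrays and as low as 0.01 without the 48 h TGF-β1 array. Neurod6, a transcription factor of cortical projection neurons, was 9.27, 8.86 and 9.75 with DOC and 10.35, 10.64 and 10.26 with TGF-β1, with no overlap (1.12 ± 0.24, adjusted p = 0.102). Tubb3, neuronal tubulin, differed by 0.89 ± 0.20 and Nrgn, the calmodulin-binding neurogranin, by 0.54 ± 0.15. Camk2a, the postsynaptic kinase subunit, was 10.41, 10.35 and 8.12 against 11.59, 11.54 and 11.22, so that its gap came mostly from the DOC array at 48 h (1.82 ± 0.54, adjusted p = 0.148).

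Glutamate receptor and excitatory synapse genes split 18 above and 14 below 0 (median 0.06, and -0.05 with centred arrays). Of these 32, 7 were higher and 1 lower at an unadjusted p under 0.05, against 14.3% and 6.49% of all genes. Grik5, a kainate receptor subunit, was 7.21, 7.31 and 6.72 with DOC and 7.85, 8.01 and 7.58 with TGF-β1, without overlap (0.73 ± 0.11, adjusted p = 0.0894). Grin1, the obligatory NMDA receptor subunit, was 9.16, 9.48 and 8.51 against 9.81, 9.85 and 9.52 (0.68 ± 0.14, adjusted p = 0.0975). The sham values, 7.58 for Grik5 and 9.79 for Grin1, lay within the TGF-β1 range. Cacng3, an AMPA receptor auxiliary subunit, differed by 0.95 ± 0.21. GABA signalling and interneuron genes were level too (median 0.07, and -0.04 with centred arrays; 3 higher and 1 lower at that level). Gad2, which makes GABA at terminals, was lower with TGF-β1 (9.35, 9.29 and 9.51 against 8.66, 8.88 and 9.12; -0.50 ± 0.12, adjusted p = 0.118), while Sst, somatostatin, and Gabrd, the extrasynaptic receptor subunit, were higher by 0.64 ± 0.18 and 0.71 ± 0.22.

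Channel genes held members at both ends (median 0.12, and 0.02 with centred arrays). Of 37 tested, 3 were higher and 3 lower at an unadjusted p under 0.05, against 14.3% and 6.49% of all genes. Cacna1h, the T-type calcium channel Cav3.2, was 4.22, 3.35 and 3.75 with DOC and 6.05, 5.14 and 5.26 with TGF-β1, 1.5 or more apart at each time, with the sham at 5.98 (1.71 ± 0.25, adjusted p = 0.0894). Its DOC values at 24 and 48 h were under the filter level of 4, so the size of the gap is against values near background. Kcnd3, the A-type potassium channel Kv4.3, was lower (8.51, 8.93 and 7.91 against 7.26, 7.93 and 7.55; -0.87 ± 0.20, adjusted p = 0.112), as was Cacnb4 above. Oligodendrocyte genes had 16 of 19 above 0 (median 0.31, 0.20 with centred arrays and as low as 0.11 without the 48 h TGF-β1 array). At an unadjusted p under 0.05, 4 of the 19 were higher, against 14.3% of all genes. Mag, a myelin adhesion molecule, was 11.16, 11.12 and 10.30 against 11.57, 11.49 and 11.87 (0.78 ± 0.28), and Mbp differed by 0.40 ± 0.13.

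The endothelium, pericyte and barrier list bears on the agent that opens the barrier. Of 28 tested, 7 had an unadjusted p under 0.05, all higher with TGF-β1, against 14.3% of all genes, and none passed. The median was 0.18 (0.07 with centred arrays), and -0.05 without the 48 h DOC array. At the early time 9 were at least 2-fold higher and 1 lower, against 3.17% and 2.23% of all genes. At 24 h the median was -0.11, with 4 higher and 5 lower by 2-fold, against 3.47% and 3.68%. The tight junction gene Cldn5 was 9.65, 10.34 and 10.54 with DOC and 9.94, 9.78 and 10.94 with TGF-β1 (0.05, interval -0.49 to 0.59), and occludin, Ocln, was 4.90, 5.53 and 6.81 against 5.41, 5.53 and 7.10 (0.26, interval -0.16 to 0.68). Neither junction gene was apart between the agents. Vwf, von Willebrand factor, was 4.96, 6.60 and 6.50 against 6.57, 7.02 and 8.02 (1.18 ± 0.26, adjusted p = 0.102). Tek, the angiopoietin receptor TIE2, differed by 0.56 ± 0.13, and Slc7a5, the large amino acid carrier of the barrier, by 1.16 ± 0.27. Bile acid and xenobiotic genes, which include the transporters and enzymes that handle deoxycholate, had 10 of 29 tested, with none at an unadjusted p under 0.05 and a median of -0.05. Abcb1a, P-glycoprotein, was 5.78, 5.60 and 6.68 with DOC and 6.12, 6.20 and 6.77 with TGF-β1 (0.34, interval -0.06 to 0.74). Cyp7b1, an oxysterol hydroxylase, was near equal (0.18, interval -0.14 to 0.51).

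**Figure D4:**
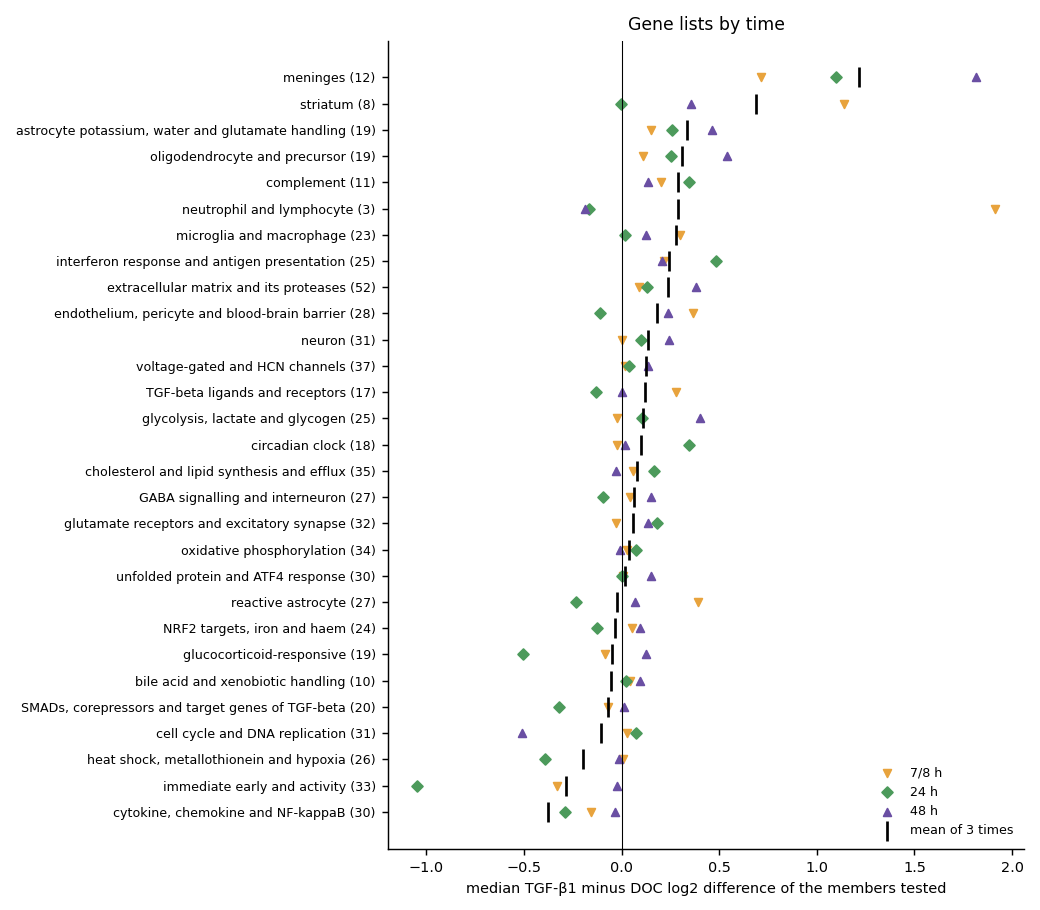
Median log2 difference (TGF-β1 minus DOC, horizontal axis) of the tested members of each list with at least 3 (vertical axis, number tested in brackets) at 7 or 8 h, 24 h and 48 h, with a bar for the mean of the 3 times. The meningeal markers lie farthest to the right (1.21) and the activity genes at 24 h farthest to the left (-1.05).

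Stress and metabolic lists had no member past the threshold. At an unadjusted p under 0.05, 14.3% of all genes were higher and 6.49% lower with TGF-β1. The lists counted, in that order, 2 and 4 of 26 for heat shock and hypoxia and 4 and 1 of 30 for the unfolded protein response. For lipids it was 3 and 2 of 35, and for oxidative phosphorylation 4 and 0 of 34. The clock had 3 and 2 of 18, and glucocorticoid-responsive genes 2 and 1 of 19. Heat shock, metallothionein and hypoxia genes had 18 of 26 below 0 (median -0.20, -0.39 at 24 h and -0.01 without the arrays of 24 h). Mt3, the brain metallothionein, was nonetheless higher with TGF-β1 (13.14, 13.04 and 13.43 against 13.78, 13.68 and 13.60), with no overlap. NRF2 target, iron and haem genes had 4 higher and 4 lower of 24 at an unadjusted p under 0.05. Hmox1, haem oxygenase 1, was 7.52, 9.96 and 8.21 with DOC and 6.27, 8.29 and 9.33 with TGF-β1, against 3.58 in sham. DOC was the higher at the first times and TGF-β1 at 48 h (-0.60, interval -1.77 to 0.57). Gclc, the catalytic subunit for glutathione synthesis, was 9.44, 9.19 and 8.29 against 8.28, 7.84 and 8.10 (-0.90 ± 0.29). Among unfolded protein genes, Calr, the chaperone calreticulin, differed by 0.59 ± 0.13 (adjusted p = 0.0975), and the list median was 0.02 (-0.09 with centred arrays).

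Cholesterol and lipid genes had a median of 0.08, and -0.03 with centred arrays. Srebf1, the lipogenic transcription factor, was 7.00, 6.84 and 6.75 with DOC and 7.55, 8.19 and 8.11 with TGF-β1 (1.09 ± 0.21, adjusted p = 0.0975), with no overlap. The cholesterol synthesis enzymes Hsd17b7 and Msmo1 were lower, at -0.59 ± 0.14 and -0.57 ± 0.14. Glycolysis genes had 7 of 25 higher at an unadjusted p under 0.05 and 1 lower, against 14.3% and 6.49% of all genes. Their median was 0.11 (0 or below once arrays were centred). Pygm, glycogen phosphorylase, differed by 0.73 ± 0.16 and Aldoa, aldolase A, by 0.39 ± 0.11. Oxidative phosphorylation genes were level (median 0.04, and -0.07 with centred arrays), and none of 34 was 2-fold apart at any time. Clock genes had a median of 0.10 (-0.01 with centred arrays), in which Dbp was 8.71, 7.30 and 8.73 against 9.61, 9.28 and 9.28 (1.14 ± 0.27) and Rora was lower (-0.67 ± 0.21). Glucocorticoid-responsive genes had a median of -0.05, and -0.51 at 24 h. Per1 differed by 0.61 ± 0.21 and Pdk4, which turns off pyruvate oxidation, by -0.93 ± 0.35.

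Cell cycle genes had a median of 0.03 at the early time, 0.075 at 24 h and -0.51 at 48 h. At 48 h 7 of 31 were at least 2-fold lower with TGF-β1 and none higher, against 1.5% and 3.21% of all genes. Over the 3 times the median was -0.10. With an array or time left out it ranged from -0.34 (without the 24 h DOC array) to 0.14 (without the 48 h DOC array), and was also above 0 without the 48 h TGF-β1 array (0.01) and without all arrays of 48 h (0.081). None passed, with 2 higher and 3 lower at an unadjusted p under 0.05, against 14.3% and 6.49% of all genes. Their mean log2 signal went from 5.08 at 24 h to 7.21 at 48 h with DOC and from 5.24 to 6.70 with TGF-β1. Mcm4 and Mcm7, parts of the same replicative helicase, differed in opposite directions, at -0.57 ± 0.17 and 0.89 ± 0.25.

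Striatal markers, which a deep dissection would bring in, had 7 of 8 above 0 (median 0.69, and 0.58 with centred arrays). None passed, and 2 of 8 were higher at an unadjusted p under 0.05, against 14.3% of all genes. The gap was widest at the early time, with a median of 1.14 and 5 of 8 at least 2-fold higher with TGF-β1, against 3.17% of all genes. The median was -0.004 at 24 h and 0.355 at 48 h. At 48 h 2 of 8 were at least 2-fold higher, against 3.21% of all genes. Over the 3 times the median was 0.20 without the early arrays, 0.30 without the early DOC array, 0.33 without the early TGF-β1 array, 1.055 without the 24 h DOC array and 1.049 without all arrays of 24 h. Their mean signal was 6.90 on the early DOC array and 8.30 on the early TGF-β1 array, against 7.19 in sham. Penk, proenkephalin, was 7.95, 8.45 and 7.81 with DOC and 9.92, 8.46 and 9.35 with TGF-β1 (1.17 ± 0.37, adjusted p = 0.162), and Drd1, the dopamine D1 receptor, was 5.04 against 7.58 at the early time and 6.20 against 6.30 at 24 h. Pde10a, a striatal phosphodiesterase, was higher at each time (0.77 ± 0.30). The part of these markers in the early differences of neuronal genes was not tested. The choroid plexus list had 1 tested member, Ttr, which was 5.63 on the early DOC array and 3.30 to 3.63 on the other 5. Red cell genes were alike, with Hbb at 11.94 to 13.43 on the 6 arrays (-0.07, interval -0.63 to 0.49) and Alas2 at 0.09 (interval -0.53 to 0.71), which was -0.02 with centred arrays.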

How the data were processed

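Total RNA of rat cortex was extracted with Trizol and hybridised as biotin-labelled cRNA, per the labels' protocols. The deposited values are log2 signals per probe set of an Affymetrix rat expression array, made by the authors with GCRMA, per the submitters' processing notes. Its version is not given in the sources used here. That method subtracts background by probe sequence, equalises the arrays by quantiles and summarises the probes, which can hide a shift common to all genes. No depth applies to arrays, and their number limits the precision.

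Of 31099 probe sets, 57 were controls, 20826 named 1 gene, 436 several and 9780 none, by the platform table updated through RefSeq (GRCr8) (20758 by Entrez identifier, 2 by accession, while 66 kept their symbol). Each of 14217 genes was taken by its probe set with the highest mean over 19 arrays, and 10018 with log2 above 4 on at least 2 of the 10 arrays of set 1 were tested. With limma 3.58.1 in R 4.3.3, an additive model of treatment and time (7 and 8 h counted as 1 early time) was fitted to the 9 treated arrays, where albumin only shares the spread, which has 4 residual and 3 prior degrees of freedom. Tests were two-sided with Benjamini-Hochberg adjustment and a threshold of 0.05. Time served as the pairing, and the labels give it. The sham entered no fit. The fit was tested on simulated data.

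Genes were named by rule: all past the threshold, filled to 8 per direction with the smallest p among genes of 1 sign at all 3 times, up to 3 per list with the smallest p, and 20 fixed genes, of which Tgfb3, Kcnj10 and Socs3 were under the filter, Tgfbr2 had no probe set of its own and 1 is not reported here. Other genes named, among them Inhba, Eng, Tgfbi, Klf10, Id1, Srxn1, Arc, Slc6a20a, Crabp2, Camk2a and Drd1, were chosen after their values were seen. In 31 lists, 876 of 985 entries matched a probe set. The comparison, lists and members were chosen with earlier results of these data known. Alternatives were the arrays in the fit, the time term, the filter, the prior, the scaling, the probe set per gene and leaving out arrays or times. Motifs were searched on both strands of promoters of 250 bases. Plots were made with Python 3.11.15 and matplotlib 3.10.9.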

Additional observations from a re-analysis of the deposited data

Results flagged for a closer look

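The poly-A control probe sets, which enter no comparison of genes, were lower with TGF-β1 by a mean log2 difference of -1.12, with no overlap in 24 of 24. Brcc3-ps7, the gene with the smallest p, was as low on 3 arrays of set 2 as on the DOC arrays: 2.23 on an albumin array (replicate 3), and 2.14 and 2.24 on arrays with albumin and receptor blockers (replicates 2 and 4). The other arrays of those groups read 8.48 to 9.72.

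S100a9 and Hmox1, like Eng, Tgfbi, Klf10, Arc and others named above, stood on opposite sides at different times. S100a9, of neutrophils, had a difference of 1.92 at the early time and of -1.42 at 48 h. Hmox1, the haem-degrading enzyme, had one of -1.67 at 24 h and of 1.12 at 48 h. Each time had 1 array per treatment, so the difference between times was not tested.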

How the results depend on the processing

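Of the 3 genes past the threshold, all kept their direction under every setting. The count was 3 with a stricter filter, a trended robust prior, either other scaling or every probe set fitted, 2 with no filter or with probe sets averaged, and 5 with only the 6 arrays. The arrays were blocked by time; with the time term left out (no replicate block) it was 2, and Ubn1 was lost. Leaving out arrays or times gave 0 to 179 genes, the highest without the 48 h DOC array and 0 without all 48 h arrays (smallest adjusted p 0.0758). List members past the threshold numbered 0 at most settings, 1 with only the 6 arrays, and 0 to 20 with arrays left out. Genes 2-fold apart at all 3 times were 24, and 14 with probe sets averaged. The adjusted p under 0.1 counted 1 to 1078 genes with arrays left out. Signs turned with centred arrays for Alas2 (-0.017) and Slc1a3 (-0.087), with quantile normalization for Alas2 (-0.005) and Slc1a3 (-0.02), and with probe sets averaged for Tgfb2 (0.091) and Slc1a3 (-0.073). With arrays or times left out the difference ranged from -0.324 to 1.67 for S100a8, -0.705 to 1.43 for S100a9, -1.04 to 0.11 for Ttr, -0.244 to 0.625 for Smad7, -0.119 to 0.183 for Slc1a3, -0.289 to 1.37 for Il6, -0.382 to 0.178 for Hbb, -0.26 to 0.07 for Tgfb2, -0.318 to 0.322 for Alas2 and -0.206 to 0.729 for Tgfb1. The cause of these changes was not tested. The number of arrays, 1 per treatment and time, limits all values, and signals near the bottom of the range have no reliable order.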
